A study of Mus musculus with 18 samples.

Results

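Expression of 40 genes of the mitosis and cytokinesis machinery was measured in the mouse jejunum after FLASH and conventional (CONV) irradiation. The genes were taken from a list of spindle, kinetochore, checkpoint and cytokinesis components and matched by symbol to a count table of 54532 genes, in which all 40 were found. All 40 also passed the filter on low counts that left 16257 genes for testing. The libraries came from whole jejunum of C57BL/6 mice aged 8 to 12 weeks: 6 from untreated controls, 5 from mice given 15 Gy to the whole abdomen in 1 fraction at a conventional dose rate, and 7 from mice given the same dose at the ultra-high dose rate called FLASH. Both irradiated groups were taken 16 h after exposure. Whether each library stands for its own mouse is not given in the labels, and p-values here describe variation among libraries, which may be technical.

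Cells enter mitosis when cyclin A and cyclin B activate CDK1. Chromosomes then condense, attach through kinetochores to the microtubules of the spindle, and are held back by the spindle checkpoint until every kinetochore is attached. The anaphase-promoting complex (APC/C), a ubiquitin ligase, then starts chromosome separation, and the central spindle and a contractile ring split the cell. In the small intestine these genes are expressed mainly by the dividing stem and progenitor cells of the crypts, while the absorptive and secretory cells of the villus no longer divide. Many of the genes are transcribed late in the cell cycle. Their promoters are known for CCAAT boxes, bound by the factor NF-Y, and for CHR elements (cell cycle genes homology regions), bound by MuvB complexes that repress them in resting cells or, with B-MYB and FOXM1, activate them in G2 and mitosis.

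The 250 bases before the RefSeq start (GRCm38.p6) were read for 35 of the 40 genes. Not matched were Ccna2, Tpx2, Aurkb, Incenp and Kif20a. The letters CCAAT, or ATTGG on the other strand, stood in 25 of the 35 promoters (71.4%), against 34.9% of 20580 promoters of the same length. A CHR form (TTTGAA, which reads TTCAAA on the other strand, or the forms TTCGAA and TTTAAA) stood in 17 (48.6%), against 25.1% of all promoters, and both motifs in 14 (40%), against 8.92%. TTCAAA and ATTGG can share their end letter. These matches are letters in a window and not measured binding. The stretches below, read on the gene's strand, belong to members with different responses. They were chosen after their motifs were seen. Mki67 and Kif11 fell in both irradiated groups, Cdc20 and Ccnb1 passed the test in neither, and Aurka and Bub1 were lower in FLASH than in CONV. Capitals mark the motifs.
Mki67 (chr7:135716462-135716577, minus strand): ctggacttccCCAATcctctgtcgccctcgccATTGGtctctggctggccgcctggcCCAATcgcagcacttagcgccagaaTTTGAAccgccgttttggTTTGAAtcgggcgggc
Kif11 (chr19:37376327-37376378, plus strand): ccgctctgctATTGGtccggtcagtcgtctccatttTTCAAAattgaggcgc
Cdc20 (chr4:118437344-118437406, minus strand): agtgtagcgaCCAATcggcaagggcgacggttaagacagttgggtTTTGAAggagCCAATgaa
Ccnb1 (chr13:100786513-100786595, minus strand): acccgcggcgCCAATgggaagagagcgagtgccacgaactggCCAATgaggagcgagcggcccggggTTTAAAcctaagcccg
Aurka (chr2:172370575-172370631, minus strand): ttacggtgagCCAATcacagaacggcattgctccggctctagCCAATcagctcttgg
Bub1 (chr2:127831887-127831937, minus strand): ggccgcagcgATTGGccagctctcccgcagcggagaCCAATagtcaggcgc
Mki67, Kif11, Cdc20 and Ccnb1 carried both motifs, and Aurka and Bub1 carried CCAAT boxes without a CHR form. The other members lower in FLASH than in CONV did not share that arrangement: Ube2c carried both motifs and Nuf2 neither. A CCAAT box stood in 17 of the 23 matched genes that fell in at least 1 irradiated group and in 8 of the 12 that did not. Any CHR form stood in 11 of the 23 and 6 of the 12. Both motifs stood in 8 of the 23 and 6 of the 12, and 2 or more CCAAT boxes in 9 and 8.

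Library totals ran from 24342285 to 27765544 estimated counts in control, 19936095 to 26990095 in CONV and 23079695 to 30196611 in FLASH. Levels are given in CPM, the usual count scale relative to library size, after scaling for composition by TMM factors. Differences are log2 fold changes with their standard error (SE), and a gene was called where edgeR's quasi-likelihood test gave an adjusted p under 0.05 over all 16257 genes. Some libraries stood apart in how level depended on transcript length: long transcripts were low relative to short ones above all in control 6, CONV 6, FLASH 1 and CONV 2. The slope of level on log2 length was 0.235 to 0.317 in control 1, 2, 4 and 5, and -0.0121 and -0.41 in control 3 and 6. It ran from -0.433 to 0.0475 in CONV and from -0.34 to 0.267 in FLASH. The trend was thus partly confounded with the comparison of CONV and control. Each count was therefore also computed with an offset per library for transcript length and GC content. CONV against control and FLASH against control share the 6 control libraries, so their values are not independent.

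Many of the 40 genes fell after irradiation, and those that passed the test all moved down. In CONV, 17 fell and 0 rose. Over all genes tested, 12.0% fell and 10.2% rose in that comparison. The members' median log2 fold change was -0.54, against -0.04 over all genes. In FLASH, 27 fell and 0 rose, where 21.0% of all genes fell and 16.7% rose, and the members' median was -0.77, against -0.07. Both shares of members, 42.5% and 67.5%, stood above the share of all genes. In these bulk samples fewer dividing cells and less RNA of these genes per cell cannot be told apart.

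The fall was moderate for most members. Changes of more than 2-fold were called in 9 members in CONV and in 5 in FLASH, where 7.95% and 12.2% of all genes passed that rule. Values did not overlap between irradiated and control libraries for 6 members in CONV (Ccna2, Kif11, Kif15, Cenpf, Racgap1 and Anln) and for 5 in FLASH (Ccna2, Kif11, Kif15, Aurkb and Racgap1), where 4.95% and 6.86% of all genes lay wholly below the controls. With the length and GC offset 21 members fell in CONV and 31 in FLASH, against 13.5% and 23.8% of all genes. Leaving out 1 library at a time gave 10 members (without CONV 2) to 22 (without control 6) in CONV, and 23 to 29 in FLASH. Counts over all genes moved along in CONV, with 1105 of 16511 lower without CONV 2 and 3347 of 16173 without control 6. In FLASH, 2536 (without control 2) to 3817 (without control 6) of all genes fell on leaving out 1 library.

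**Figure D1:**
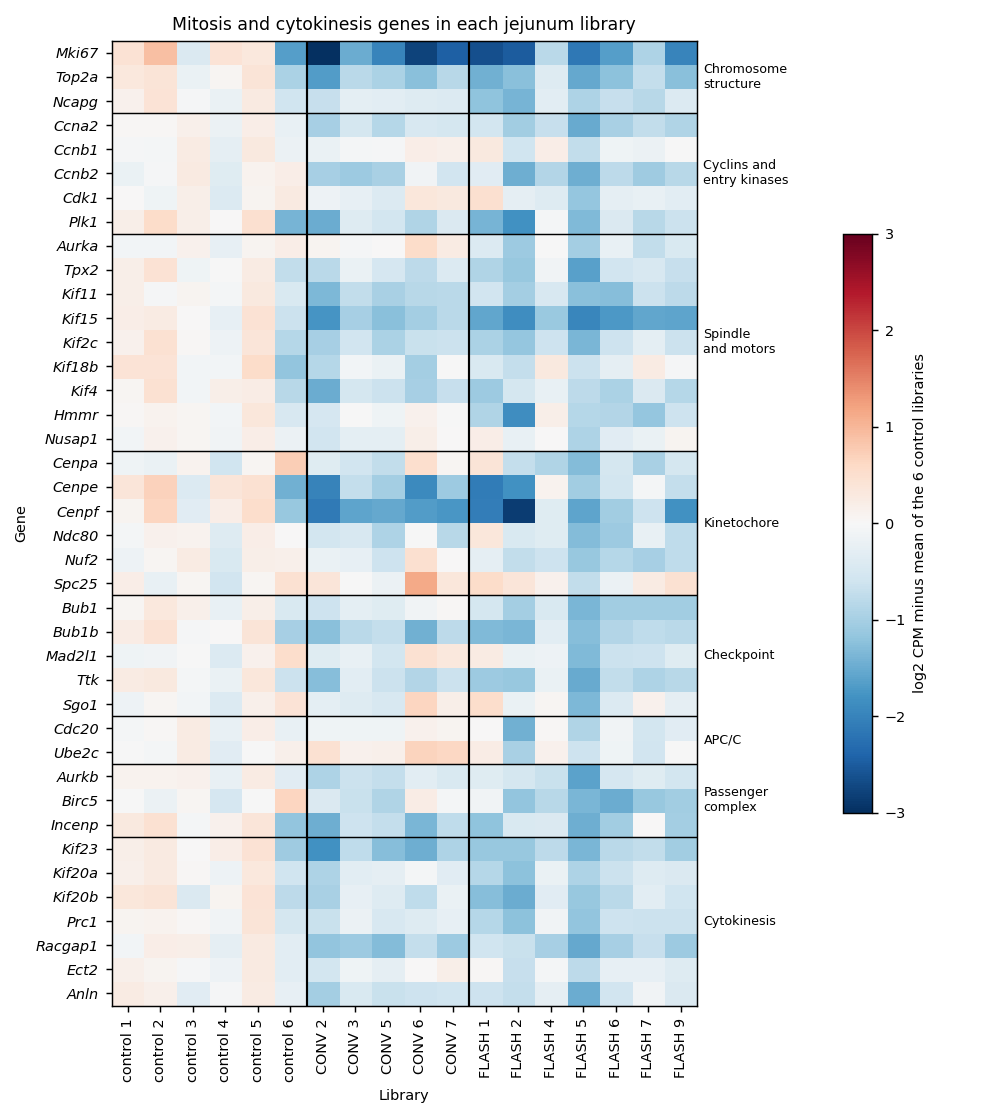
Log2 CPM of each of the 40 genes (rows, by role) in each of the 18 libraries (columns), as the difference from the mean of the 6 controls; blue is lower and red higher. Most rows are blue in CONV and FLASH, strongest in Mki67, while control 6 shares part of the pattern and CONV 6 and FLASH 1 show single members above the controls.

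Summed over the 40 genes, the controls ran from 756 to 1168 CPM, CONV from 539 to 756 and FLASH from 399.5 to 764 CPM. The groups met only at control 6: control 6 was at 756.2 CPM, CONV 6 at 755.6 and FLASH 4 at 763.9, while the other 5 controls were at 919.8 or above. Control 6 held the lowest control value of 26 members and the highest of 7. CONV 2 was lowest of its group in 26 members, and CONV 6 highest in 19. Among the FLASH libraries, FLASH 5 was lowest in 22 members and FLASH 2 in 13, whereas FLASH 4 was highest in 19 and FLASH 1 in 16.

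Of the 3 genes of chromosome structure and proliferation, 2 fell in CONV and 3 in FLASH. Mki67 encodes the Ki-67 protein that coats mitotic chromosomes and marks cycling cells. Its lowest, median and highest CPM were 26.6, 107 and 156 in control. The CONV libraries (2, 3, 5, 6 and 7, the order used throughout) were at 10.4, 29.8, 21.1, 12.1 and 15.3 CPM, and FLASH ran through 13.4, 21.2 and 47.8 CPM. Of the controls, only control 6 lay within the range of the irradiated libraries. The log2 fold change was -2.42 ± 0.44 in CONV (adjusted p = 0.00101) and -1.84 ± 0.38 in FLASH (adjusted p = 0.000944), and with the length and GC offset -1.69 and -1.56. Top2a, the topoisomerase that untangles sister chromatids, ran through 51.2, 113 and 130.3 CPM in control, 31.3, 56.5, 51.4, 41.4 and 55.4 CPM in CONV, and 33.99, 41.9 and 76.4 CPM in FLASH. It fell by similar amounts in both groups (-1.14 ± 0.25 and -1.13 ± 0.23, adjusted p = 0.00456 and 0.000840). Again control 6 was the 1 control inside the irradiated range. Ncapg, a condensin subunit, was at 9.16, 14.3 and 18.3 CPM in control, 8.59, 11.2, 11.1, 10.5 and 10.4 in CONV and 5.21, 7.74 and 10.97 in FLASH. It fell in FLASH (-0.82 ± 0.19, adjusted p = 0.00227) and did not pass in CONV (-0.45 ± 0.20, adjusted p = 0.116), where it passed without control 6 (-0.55, adjusted p = 0.0328). Its CONV values overlapped the lowest control and those of the upper FLASH libraries.

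The cyclins gave different values. Ccna2, cyclin A2, which drives S phase and entry into mitosis, was at 55.6, 66.9 and 74.8 CPM in control. It was at 32.7, 45.2, 35.9, 46.5 and 45.2 CPM in CONV and 23.1, 34.99 and 44.7 CPM in FLASH. Every irradiated library lay below every control. The fall was -0.67 ± 0.16 in CONV (adjusted p = 0.00651) and -0.90 ± 0.14 in FLASH (adjusted p = 0.000109). Ccnb1, cyclin B1, the partner of CDK1 in mitosis, was at 20.3, 23.7 and 29.7 CPM in control, 21.2, 23.6, 23.8, 28.2 and 26.96 CPM in CONV and 14.6, 22.2 and 29.7 CPM in FLASH. The 3 groups overlapped almost fully, and neither difference passed (0.00 ± 0.18 and -0.14 ± 0.16, adjusted p = 0.989 and 0.528). Its kinase Cdk1 did not pass either (-0.02 ± 0.22 and -0.26 ± 0.20). Cdk1 passed in FLASH with 1 surrogate variable (-0.46, adjusted p = 0.0382).

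Cyclin B2, encoded by Ccnb2, fell in both groups (-0.72 ± 0.22 and -0.94 ± 0.20). The CONV call for Ccnb2 was lost without CONV 2, 3 or 5 (adjusted p = 0.0726, 0.0537 and 0.0552). Plk1, the polo kinase that promotes mitotic entry and spindle assembly, fell in FLASH (-0.93 ± 0.30, adjusted p = 0.0196) and was at -0.82 ± 0.33 in CONV (adjusted p = 0.0778). The CONV value of Plk1 passed without control 6 (-0.997, adjusted p = 0.0108), and its FLASH call was lost without control 2 or control 5 (adjusted p = 0.0560 and 0.0537). Plk1 passed in CONV with the length and GC offset (-0.90, adjusted p = 0.0444).

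Of the 9 spindle assembly and motor genes, 4 fell in CONV and 7 in FLASH. Kif15, a kinesin that helps keep the spindle bipolar, was at 9.27, 15.4 and 19.4 CPM in control. It was at 4.24, 7.25, 6.07, 7.04 and 8.16 CPM in CONV and 3.68, 4.78 and 6.61 CPM in FLASH. All irradiated libraries lay below all controls. The fall was -1.17 ± 0.21 in CONV (adjusted p = 0.00107) and -1.65 ± 0.19 in FLASH (adjusted p = 5.46e-06), the smallest p of any member in FLASH. Kif11, the motor that pushes spindle poles apart and works alongside Kif15, likewise fell without overlap (-0.94 ± 0.18 and -0.85 ± 0.16). Kif2c, a microtubule depolymerase, and Kif4, a chromosome-bound kinesin, fell in both groups, with log2 fold changes of -0.81 and -0.82 for Kif2c and -0.88 and -0.72 for Kif4. Without CONV 2 the CONV call for Kif2c was lost (-0.76, adjusted p = 0.0501).

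Aurka, the kinase of the spindle poles, differed between the irradiated groups. Its CPM ran through 14.9, 17.6 and 20.2 in control. It was 18.5, 17.3, 17.8, 25.7 and 20.8 in CONV and ran through 8.24, 12.8 and 17.4 in FLASH. The CONV libraries lay within or above the control range, and 5 of the 7 FLASH libraries lay below it. Aurka did not pass in CONV (0.18 ± 0.18, adjusted p = 0.473) and fell in FLASH (-0.52 ± 0.17, adjusted p = 0.0212), a call lost without control 5 (adjusted p = 0.0552). Tpx2, which activates Aurora A, and Hmmr, a spindle pole protein, fell in FLASH (-0.76 ± 0.22 and -0.78 ± 0.23) and did not pass in CONV (-0.57 ± 0.24 and -0.11 ± 0.25). Tpx2 passed in CONV without control 6 (-0.68, adjusted p = 0.0217). Kif18b and Nusap1, which act on microtubule ends and bundles, passed in neither (-0.47 and -0.17 in CONV, -0.28 and -0.16 in FLASH).

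**Figure D2:**
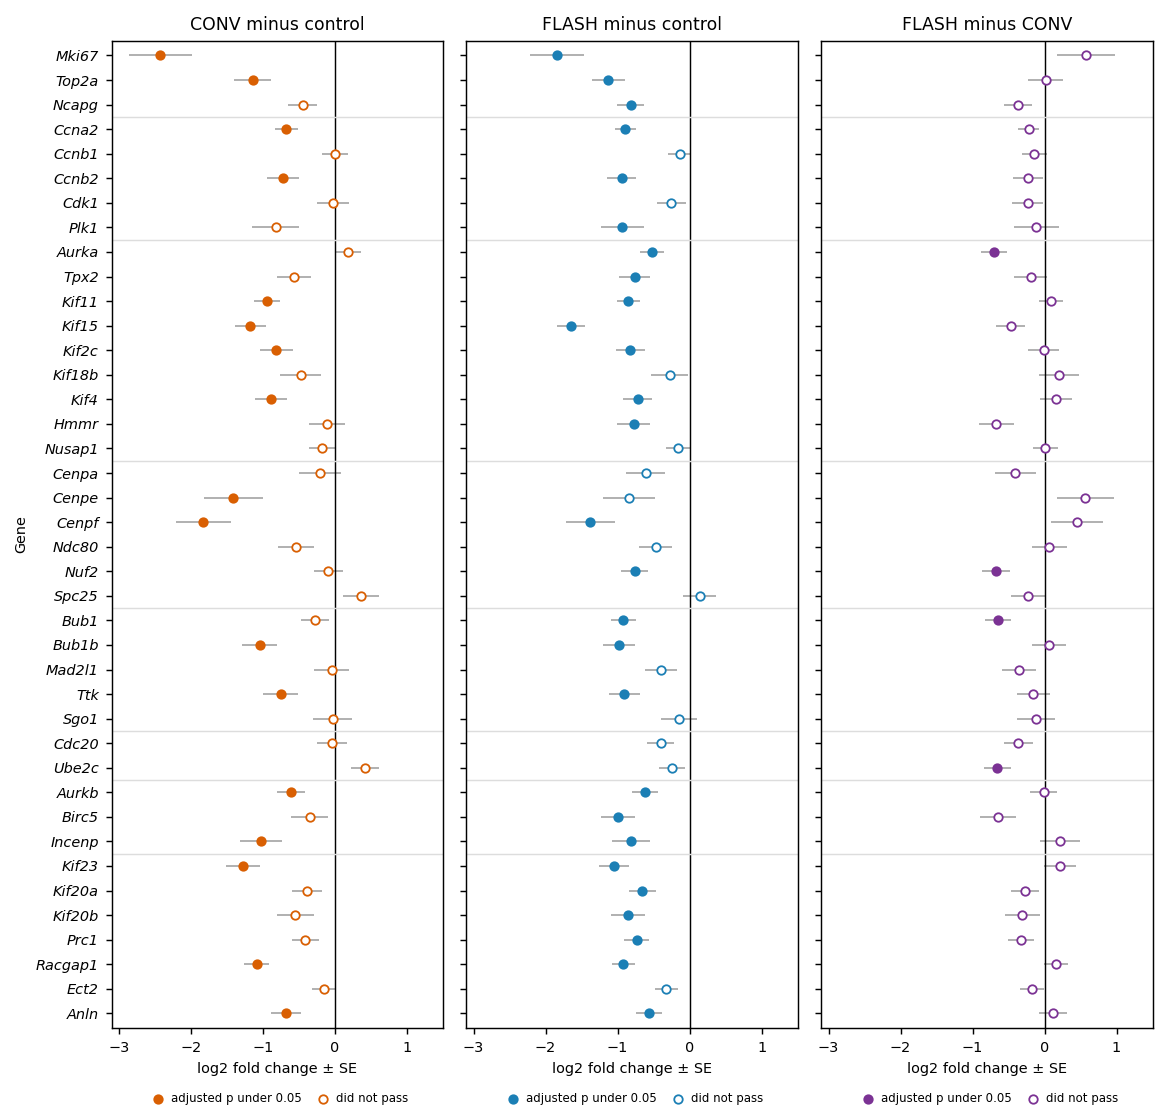
Log2 fold change ± SE of each of the 40 genes (rows, by role) in CONV minus control, FLASH minus control and FLASH minus CONV; filled points passed at an adjusted p under 0.05. There are 17, 27 and 4 filled points, all left of 0.

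The 6 centromere and kinetochore genes had 2 lower members in each irradiated group. Cenpf, a large protein of the outer kinetochore, was at 6.93, 16.8 and 23.8 CPM in control. It was at 3.51, 5.02, 5.21, 4.74 and 4.54 CPM in CONV and 2.09, 5.05 and 11.8 CPM in FLASH. CONV lay wholly below control, whereas FLASH reached into the control range. The fall was -1.82 ± 0.38 in CONV (adjusted p = 0.00300) and -1.38 ± 0.33 in FLASH (adjusted p = 0.00348), and -1.09 and -1.15 with the offset. Cenpe, the kinetochore motor that aligns chromosomes, fell in CONV (-1.41 ± 0.41, adjusted p = 0.0211) and did not pass in FLASH (-0.84 ± 0.36, adjusted p = 0.0751). Both Cenpe calls turned with single libraries: CONV lost it without CONV 2 or CONV 6 (adjusted p = 0.0616 and 0.0666), and FLASH gained it without control 6, FLASH 4 or FLASH 7 (adjusted p = 0.0191, 0.0400 and 0.0494). Cenpe passed in FLASH too with the length and GC offset (-0.69, adjusted p = 0.0269).

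Nuf2, a subunit of the NDC80 complex that grips microtubules, was at 7.78, 11.6 and 12.7 CPM in control. It was at 9.43, 9.07, 6.96, 15.1 and 10.8 CPM in CONV and 4.91, 6.36 and 8.91 CPM in FLASH. CONV spread across the whole control range, and all but 1 FLASH library lay below the lowest control. It fell in FLASH (-0.76 ± 0.18, adjusted p = 0.00316) and not in CONV (-0.09 ± 0.20, adjusted p = 0.765). Its partners in the complex, Ndc80 and Spc25, passed in neither comparison. Ndc80 was at -0.54 ± 0.25 and -0.47 ± 0.23, and Spc25 at 0.37 ± 0.25 and 0.14 ± 0.23. Cenpa, the histone variant that marks centromeres, was at -0.21 ± 0.29 and -0.61 ± 0.27. In FLASH both Cenpa and Ndc80 passed without FLASH 1 (-0.86 and -0.66, adjusted p = 0.00885 and 0.0187). With the offset Cenpa and Ndc80 passed in both groups.

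Of the 5 checkpoint and cohesion genes, 2 fell in CONV and 3 in FLASH. Bub1b, which encodes the checkpoint protein BubR1, was at 9.93, 21.5 and 26.5 CPM in control. It was at 8.27, 11.3, 11.9, 7.22 and 11.5 CPM in CONV and 7.64, 10.8 and 15.99 CPM in FLASH, and control 6 was the 1 control within the irradiated range. It fell by similar amounts (-1.04 ± 0.25 and -0.98 ± 0.22, adjusted p = 0.00659 and 0.00201). Bub1, the related kinase that recruits checkpoint proteins to kinetochores, was at 7.298, 10.8 and 12.4 CPM in control, 6.54, 8.23, 7.86, 9.300 and 10.4 CPM in CONV and 3.92, 4.900 and 7.31 CPM in FLASH. CONV overlapped the controls, and 6 of 7 FLASH libraries lay below the lowest control. It fell in FLASH (-0.92 ± 0.17, adjusted p = 0.000477) and did not pass in CONV (-0.28 ± 0.19, adjusted p = 0.286). Ttk, the kinase MPS1 that starts checkpoint signalling, fell in both (-0.75 ± 0.24 and -0.91 ± 0.22). Its CONV call was lost on leaving out any 1 of 7 libraries (control 1, 2 or 5, or CONV 2, 5, 6 or 7, adjusted p = 0.0504 to 0.0955). Mad2l1, the checkpoint effector MAD2, and Sgo1, shugoshin, which guards centromeric cohesion, passed in neither (-0.04 and -0.03 in CONV, -0.40 and -0.15 in FLASH). With 1 surrogate variable Mad2l1 passed in FLASH (-0.65, adjusted p = 0.00710).

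Neither of the genes that act with the APC/C passed against control in either group. Cdc20, its mitotic activator and the target of the checkpoint, was at 26.2, 30.5 and 36.2 CPM in control. It was at 27.8, 27.8, 27.96, 33.5 and 32.5 CPM in CONV and 11.3, 23.97 and 31.4 CPM in FLASH. CONV lay within the control range, and FLASH spread from far below it to its middle. The differences were -0.04 ± 0.21 in CONV (adjusted p = 0.903) and -0.40 ± 0.19 in FLASH (adjusted p = 0.104), where Cdc20 passed with the length and GC offset (-0.51, adjusted p = 0.0299). Ube2c, the ubiquitin-conjugating enzyme of the APC/C, was at 32.2, 40.5 and 48.4 CPM in control, 55.8, 44.3, 45.1, 65.01 and 62.8 CPM in CONV and 20.7, 36.9 and 47.1 CPM in FLASH. Of the CONV libraries 3 exceeded every control, while 3 FLASH libraries lay below every control. It was at 0.41 ± 0.19 in CONV (adjusted p = 0.124) and -0.24 ± 0.18 in FLASH (adjusted p = 0.310).

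The chromosomal passenger complex corrects faulty attachments and then moves to the central spindle. Incenp, its scaffold, was at 11.3, 29.8 and 35.3 CPM in control. It was at 9.27, 16.8, 15.7, 9.98 and 15.2 CPM in CONV and 9.27, 12.6 and 25.7 CPM in FLASH. Both irradiated groups overlapped the controls, in CONV through control 6 alone. The fall was -1.03 ± 0.29 in CONV (adjusted p = 0.0186, lost without CONV 2 or 6 at 0.0573 and 0.0607) and -0.81 ± 0.26 in FLASH (adjusted p = 0.0207, lost without control 1, 2 or 5 at 0.0539 to 0.0638). Aurkb, the kinase of the complex, fell in both (-0.61 ± 0.19 and -0.62 ± 0.18). Its CONV call was lost on leaving out any 1 of 7 libraries (control 1, 2, 3 or 5, or CONV 2, 3 or 5, adjusted p = 0.0511 to 0.0912). Birc5, survivin, which targets the complex to centromeres, was at 18.99, 26.4 and 41.9 CPM in control. It was at 19.9, 16.8, 14.4, 31.1 and 25.8 CPM in CONV and 9.48, 12.2 and 24.6 CPM in FLASH. Of the 6 controls 5 lay within the CONV range, and 6 of 7 FLASH libraries lay below the lowest control. Birc5 fell in FLASH (-0.998 ± 0.23, adjusted p = 0.00272) and did not pass in CONV (-0.35 ± 0.26, adjusted p = 0.314). Birc5 passed in CONV as well with the length and GC offset (-0.63, adjusted p = 0.00882), as it did with 1 surrogate variable (-0.68, adjusted p = 0.0130).

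Of the 7 central spindle and cytokinesis genes, 3 fell in CONV and 6 in FLASH. Racgap1 and Kif23 encode the subunits of centralspindlin, which bundles the central spindle and places the contractile ring. Racgap1 was at 28.2, 36.2 and 41.9 CPM in control, 15.2, 16.4, 14.1, 21.1 and 16.3 CPM in CONV and 11.9, 17.5 and 23.1 CPM in FLASH. All irradiated libraries lay below all controls, and its fall had the smallest p of any member in CONV (-1.08 ± 0.18, adjusted p = 0.000452). In FLASH it was -0.92 ± 0.16 (adjusted p = 0.000204). Kif23 was at 11.4, 27.1 and 32.05 CPM in control, 6.75, 14.02, 9.903, 8.62 and 12.5 CPM in CONV and 9.22, 11.6 and 14.4 CPM in FLASH. Control 6 was the 1 control inside the irradiated range. Kif23 fell, with log2 fold changes of -1.27 ± 0.23 in CONV (adjusted p = 0.00121) and -1.05 ± 0.21 in FLASH (adjusted p = 0.000744).

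Prc1, which cross-links the antiparallel microtubules of the central spindle, was at 18.5, 27.8 and 34.9 CPM in control. It was at 16.7, 23.6, 19.2, 20.3 and 22.4 CPM in CONV and 11.4, 17.1 and 24.6 CPM in FLASH. Both irradiated groups overlapped only the lowest control. It fell in FLASH (-0.74 ± 0.18, adjusted p = 0.00303) and did not pass in CONV (-0.41 ± 0.19, adjusted p = 0.126). The kinesins Kif20a and Kif20b fell in FLASH (-0.66 ± 0.19 and -0.86 ± 0.24) and did not pass in CONV (-0.39 ± 0.21 and -0.55 ± 0.26). Without control 6, Prc1 and Kif20b passed in CONV (adjusted p = 0.0388 and 0.0348). Anln, anillin, the scaffold of the contractile ring, fell in both (-0.68 ± 0.20 and -0.56 ± 0.18). Its calls were lost without control 5, CONV 2 or CONV 6 in CONV (adjusted p = 0.0525 to 0.0721) and without control 1, 2 or 5 in FLASH (adjusted p = 0.0557 to 0.0679). Ect2, an exchange factor that places the contractile ring, passed in neither (-0.15 ± 0.17 and -0.32 ± 0.16).

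**Figure D3:**
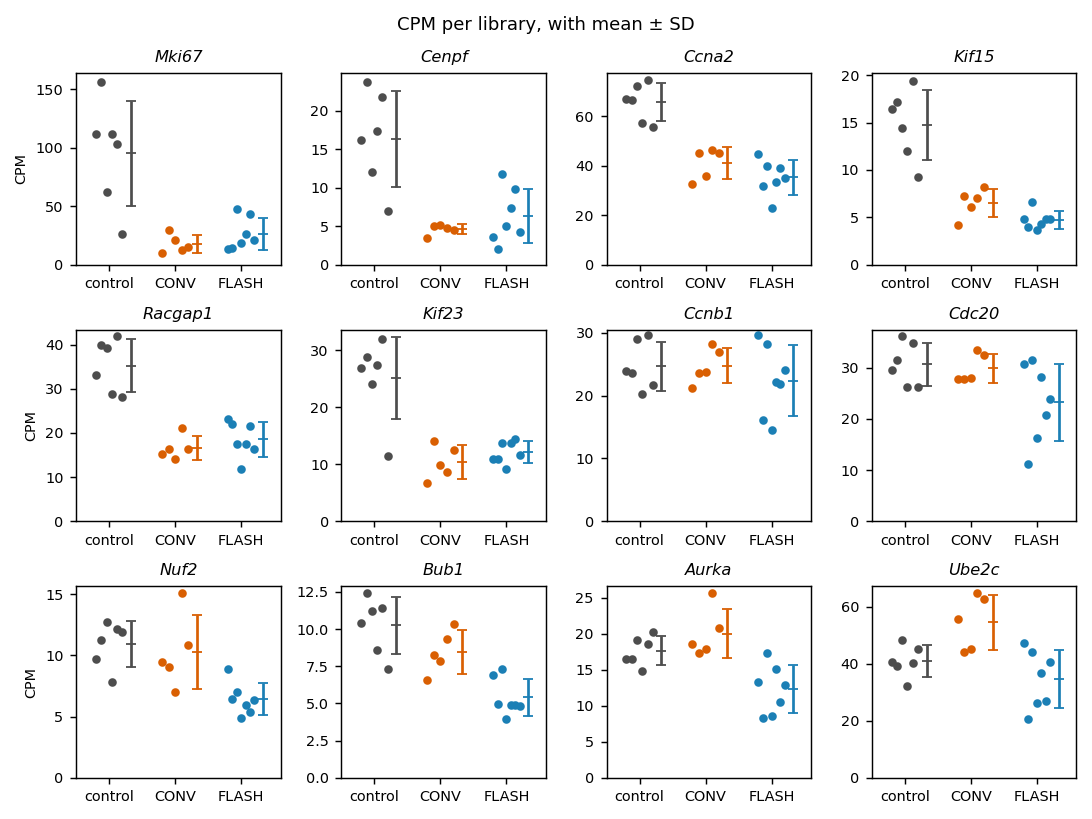
CPM of 12 members in each library (points), with the group mean ± SD beside them, for 6 control, 5 CONV and 7 FLASH libraries; each axis starts at 0. Ccna2, Kif15 and Racgap1 separate both irradiated groups from control, Ccnb1 overlaps throughout, and Nuf2, Bub1, Aurka and Ube2c are lower in FLASH than in CONV.

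Side by side, 16 members fell in both comparisons with control: Mki67, Top2a, Ccna2, Ccnb2, Kif11, Kif15, Kif2c, Kif4, Cenpf, Bub1b, Ttk, Aurkb, Incenp, Kif23, Racgap1 and Anln. Cenpe passed in CONV alone. Passing in FLASH alone were 11, namely Ncapg, Plk1, Aurka, Tpx2, Hmmr, Nuf2, Bub1, Birc5, Kif20a, Kif20b and Prc1. The remaining 12 (Ccnb1, Cdk1, Kif18b, Nusap1, Cenpa, Ndc80, Spc25, Mad2l1, Sgo1, Cdc20, Ube2c and Ect2) passed in neither. With the length and GC offset Plk1, Birc5, Cenpa and Ndc80 were added in CONV and Cenpe, Cdc20, Cenpa and Ndc80 in FLASH, and no call was lost. Passing in 1 comparison and not in the other does not show a difference between the irradiated groups, which was tested directly.

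In that direct test of FLASH against CONV, 4 of the 40 members were lower in FLASH and 0 were higher, where 9.91% of all genes were lower and 9.88% higher. The share of members, 10%, was thus that of the background. The 4 were Aurka (-0.71 ± 0.18, adjusted p = 0.0103), Nuf2 (-0.68 ± 0.19, adjusted p = 0.0191), Bub1 (-0.65 ± 0.18, adjusted p = 0.0188) and Ube2c (-0.65 ± 0.19, adjusted p = 0.0204). None of the 40 separated the groups without overlap, where 4.45% of all genes were wholly lower in FLASH, and 0 were lower by more than 2-fold, where 3.78% of all genes were. For Aurka only FLASH 4 reached the CONV range. The members' median was -0.17, against -0.02 over all genes. Birc5 and Hmmr missed the threshold (-0.65 ± 0.24 and -0.67 ± 0.24, adjusted p = 0.0679 and 0.0571), and Mki67, Cenpe and Cenpf, at 0.58, 0.57 and 0.45, had SEs of 0.36 to 0.40 and did not pass.

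The count of 4 rested on few libraries. Nuf2 was lost without CONV 6 (-0.50, adjusted p = 0.0744), Bub1 without CONV 7 (-0.57, adjusted p = 0.0628) and Ube2c without CONV 6 or CONV 7 (-0.58 and -0.60, adjusted p = 0.0556 and 0.0586), which left 2 calls in each case. Without control 6 there were 6, with Hmmr and Birc5 added (adjusted p = 0.0444 and 0.0438). Hmmr also passed without FLASH 4, and Birc5 without CONV 5 or FLASH 1 (adjusted p = 0.00348, 0.0437 and 0.0108). In all, Hmmr passed in 9 of 32 alternative fits, among them the DESeq2 test and limma-voom (adjusted p = 0.0394 and 0.0275), and Birc5 in 6. Aurka kept its call in all 32. With the length and GC offset 5 members were lower (12.0% of all genes): Aurka (-0.55), Nuf2 (-0.45), Bub1 (-0.54), Kif15 (-0.56) and Hmmr (-0.65). Ube2c did not pass there (-0.41, adjusted p = 0.103).

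The size of the fall went with transcript length. The members' annotated transcripts had a median of 3281 bases, against 2958.5 bases over 14485 tested protein-coding genes. Among the 10 shortest (947 to 2201 bases, Birc5 to Ndc80) the median log2 fold change in CONV was -0.28 and 2 fell. Among the 10 longest (4605 to 11130 bases, Anln to Cenpf) it was -1.04 and 8 fell. The 20 in between had a median of -0.43 and 7 fell. In FLASH the medians were -0.57, -0.77 and -0.85 from short to long, with 5, 14 and 8 lower. Lengths are those of 1 annotated transcript per gene. Mad2l1, at 7557 bases, was highest of its group in control 6, CONV 6 and FLASH 1 (37.1, 35.8 and 30.8 CPM), where long transcripts were low. Whether the annotated transcript was the one expressed was not tested.

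With the length and GC offset the CONV medians became -0.63, -0.39 and -0.88 from short to long, and the FLASH medians -0.66, -0.74 and -0.80. In FLASH against CONV the median of the longest class moved from 0.10 to -0.05. The members' lower level in both irradiated groups was thus present with the offset as well, and the medians of the shortest and longest classes lay closer together in both groups. The part of RNA quality in the gradient was not tested.

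**Figure D4:**
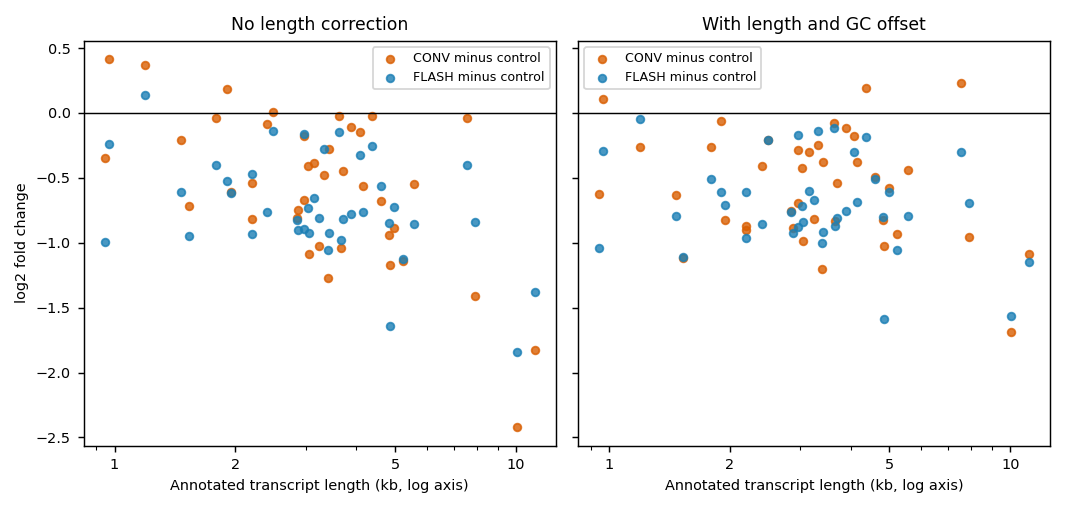
Log2 fold change of each of the 40 genes against annotated transcript length (kb, log axis) in CONV minus control and FLASH minus control, without (left) and with (right) the length and GC offset. Without the offset the longest genes, Cenpf and Mki67, lie lowest in CONV, and Mki67 and Kif15 lie lowest in FLASH; with it most points stay below 0.

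Compared per kilobase of transcript, the most abundant member in control was Ube2c, at 42.4 ± 5.704 CPM per kb (mean ± SD, n = 6). Birc5 (29.1 ± 8.15), Ccna2 (22.1 ± 2.605), Top2a (19.9 ± 5.92), Ccnb2 (18.9 ± 3.095) and Cdc20 (17.1 ± 2.35) followed. From Ccna2 to Cdc20 neighbours in this order differed by less than either SD, and Birc5 and Ccna2 differed by less than the SD of Birc5 alone. The lowest were Cenpf (1.47 ± 0.558) and Ttk (2.04 ± 0.492). After CONV, Ube2c stood at 56.5 ± 9.97 and Top2a at 9.04 ± 2.05 CPM per kb (n = 5), and after FLASH at 35.9 ± 10.4 and 9.13 ± 2.92 (n = 7).

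Other genes of the same processes, 102 in 5 lists, gave smaller shares than the members. In CONV 21 (20.6%) fell and 3 rose, with a median of -0.18, where 12.0% of all genes fell. In FLASH 42 (41.2%) fell and 9 rose, with a median of -0.46, where 21.0% of all genes fell. In FLASH against CONV 10 (9.8%) were lower and 2 higher, a share at the 9.91% of all genes. Of 16 condensin and cohesin genes 7 fell in CONV and 8 in FLASH. Ncapd2, a condensin subunit, was at -1.31 ± 0.30 and -1.09 ± 0.27. Rad21, the cohesin subunit cut at anaphase, fell in CONV (-0.42 ± 0.13) and not in FLASH (0.02 ± 0.12), and was higher in FLASH than in CONV (0.44 ± 0.13, adjusted p = 0.0229). The CONV call for Rad21 was lost with the offset (-0.33, adjusted p = 0.0501). Of 31 kinetochore genes 3 fell in CONV (9.68%, under the share of all genes) and 11 in FLASH (35.5%), among them Kntc1, a checkpoint recruiter (-1.52 ± 0.33 and -1.85 ± 0.30). With the offset 8 of the 31 fell in CONV and 15 in FLASH, where 13.5% and 23.8% of all genes fell. The CONV share was thus under that of all genes only without the offset. Zwint, a kinetochore scaffold protein, rose in FLASH (0.83 ± 0.18, adjusted p = 0.00160).

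Of 22 other spindle genes 5 (22.7%) fell in CONV and 8 (36.4%) in FLASH, where 12.0% and 21.0% of all genes fell. Among them was the chromokinesin Kif22 (-1.11 ± 0.18 and -0.90 ± 0.17). The 3 that rose in both groups were Psrc1, Gtse1 and Ckap2, known as microtubule-associated proteins whose genes are p53 targets. Psrc1 was at 2.32, 2.54 and 2.76 CPM in control (lowest, median, highest), 15.6, 13.7, 14.5, 18.8 and 17.4 CPM in CONV and 6.67, 7.65 and 10.3 CPM in FLASH. The 3 groups did not overlap. Psrc1 rose by 2.66 ± 0.15 in CONV (adjusted p = 1.78e-09) and 1.65 ± 0.14 in FLASH (adjusted p = 2.80e-07) on the log2 scale, and was lower in FLASH than in CONV (-1.02 ± 0.14, adjusted p = 0.000246). Gtse1 rose by 1.72 ± 0.22 and 1.45 ± 0.20 and Ckap2 by 1.15 ± 0.15 and 0.68 ± 0.14, without overlap with control for Gtse1.

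Of 23 checkpoint, passenger and APC/C genes 4 (17.4%) fell in CONV and 12 (52.2%) in FLASH, where 12.0% and 21.0% of all genes fell. Melk, a mitotic kinase (-1.17 ± 0.19 and -1.24 ± 0.17), and Cdca8, the passenger subunit borealin (-0.57 ± 0.15 and -0.97 ± 0.14), fell in both. Anapc11, the catalytic RING subunit of the APC/C, was lower in FLASH than in CONV (-1.10 ± 0.24, adjusted p = 0.00405). Of 10 cytokinesis genes 2 (20%) fell in CONV, with Cit, citron kinase, at -1.91 ± 0.45. In FLASH 3 (30%) fell and 3 rose, the latter being the abscission genes Chmp4b (0.73 ± 0.16), Vps4a (0.58 ± 0.11) and Pdcd6ip (0.40 ± 0.15), which act in membrane scission outside mitosis too. Over all genes 21.0% fell and 16.7% rose in FLASH, so these small counts stood near the background.

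Regulators of mitotic entry moved both ways. Cdkn1a, the CDK inhibitor p21, was at 118, 189.8 and 266 CPM in control, 479, 412, 431, 432 and 469 CPM in CONV and 415, 669 and 962 CPM in FLASH, with all irradiated libraries above all controls. It rose by 1.23 ± 0.22 in CONV (adjusted p = 0.000866) and 1.81 ± 0.21 in FLASH (adjusted p = 4.28e-06). FLASH and CONV differed by 0.59 ± 0.21 (adjusted p = 0.0575), and by 0.70 with the offset (adjusted p = 0.0147). Wee1, the kinase that holds CDK1 inactive, rose as well (0.77 ± 0.24 and 1.01 ± 0.22). Its relative Pkmyt1 fell (-0.69 ± 0.21 and -0.78 ± 0.19), as did Mastl, the Greatwall kinase that sustains mitotic phosphorylation (-0.998 ± 0.24 and -0.62 ± 0.22). Of the 18 genes of this list that were tested, 3 rose and 2 fell in CONV, and 3 rose and 5 fell in FLASH. The lower shares were 11.1% in CONV and 27.8% in FLASH, against 12.0% and 21.0% of all genes. Over all genes 10.2% rose in CONV and 16.7% in FLASH, so without the offset the list stood near the background. With the offset 3 fell in CONV and 7 in FLASH, where 13.5% and 23.8% of all genes fell, and 3 rose in each.

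Among 24 transcription factors of G2 and M genes, 6 fell and 1 rose in CONV, and 10 fell and 2 rose in FLASH. The lower shares were 25% and 41.7%, against 12.0% and 21.0% of all genes. Foxm1 was at 7.26, 16.6 and 22.6 CPM in control, 4.66, 6.28, 6.92, 4.74 and 6.88 CPM in CONV and 4.02, 7.73 and 12.1 CPM in FLASH. CONV lay below every control, and FLASH overlapped through control 6. Its log2 fold changes were -1.49 ± 0.28 in CONV (adjusted p = 0.00122) and -1.09 ± 0.24 in FLASH (adjusted p = 0.00190). Mybl2, which encodes B-MYB, fell in CONV (-0.96 ± 0.32, adjusted p = 0.0391) and missed the threshold in FLASH (-0.73 ± 0.29, adjusted p = 0.0514). The CONV call for Mybl2 was lost with the offset (-0.66, adjusted p = 0.134). Its relative Myb fell in both (-1.66 ± 0.25 and -2.40 ± 0.23). Myb was also lower in FLASH than in CONV (-0.74 ± 0.23, adjusted p = 0.0314). E2f1, an activator of S phase genes, was lower in FLASH than in CONV by a wider margin (-1.39 ± 0.29, adjusted p = 0.00316). Lin54, the MuvB subunit that binds CHR elements, was higher in FLASH than in CONV (0.67 ± 0.15, adjusted p = 0.00432).

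**Figure D5:**
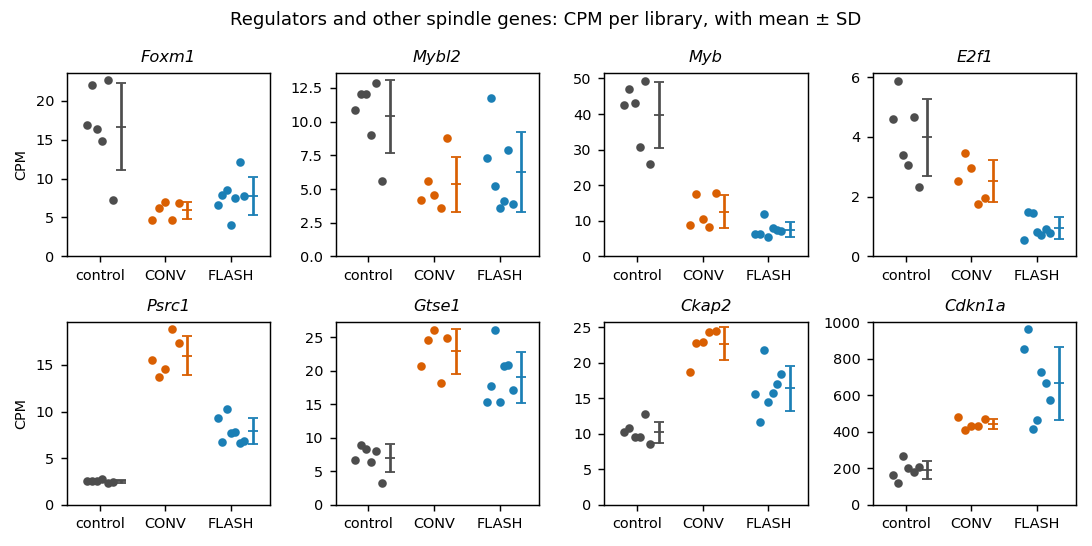
CPM of 4 transcription factors, 3 other spindle genes and Cdkn1a in each library (points), with the group mean ± SD beside them, for 6 control, 5 CONV and 7 FLASH libraries; each axis starts at 0. Psrc1, Gtse1 and Cdkn1a lie above all controls in both irradiated groups, whereas Myb lies below them.

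The DNA replication genes, expressed earlier in the same cycle, served as a comparison. Of 39, 13 (33.3%) fell in CONV with a median of -0.27, where 12.0% of all genes fell. In FLASH 28 (71.8%) fell with a median of -0.96, where 21.0% of all genes fell. In FLASH against CONV 11 of the 39 (28.2%) were lower and 1 higher, with a median of -0.44, where the mitotic members had 4 of 40 and -0.17. Over all genes 9.91% were lower and 9.88% higher. Rfc5 and Rfc2, clamp loader subunits, were lower in FLASH than in CONV (-0.90 ± 0.15 and -0.95 ± 0.18). Rrm2, the regulated subunit of ribonucleotide reductase, was the 1 gene that was higher (2.53 ± 0.34, adjusted p = 0.000206). The difference between the lists was not tested.

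Marker lists of crypt and other cells moved in different directions. Sums follow the most abundant genes of a list and need not show the typical change. Summed over 14 crypt base stem cell markers, control ran from 928 to 1492 CPM, CONV from 171 to 340.3 and FLASH from 228 to 358, and 8 and 10 of the 14 fell. Their median log2 fold change was -0.90 in CONV and -1.24 in FLASH. Of 14 absorptive enterocyte markers 7 and 11 rose, their sum running from 20692 to 45306 CPM in control, 60019 to 108915 in CONV and 65452 to 110125 in FLASH. The median log2 fold change of these markers was 0.59 in CONV and 0.97 in FLASH. Paneth cell markers (8) summed to 13539 to 18508, 10205 to 17970 and 3936 to 11195 CPM, and 0 fell and 1 rose in CONV while 6 fell in FLASH. Of 7 goblet cell markers 1 fell and 2 rose in CONV, and 2 fell and 1 rose in FLASH, their sum running from 4980 to 7881, 6782 to 9081 and 6559 to 9225 CPM. Fibroblast markers (7, of which 3 and 5 fell) ran from 273 to 1083, 107 to 355 and 180 to 323 CPM. Macrophage and dendritic cell markers (9, of which 5 and 6 fell) ran from 316 to 642, 253 to 322 and 173 to 336 CPM. Lymphoid cells can also divide. B cell and germinal centre markers (12, of which 6 were tested and 2 and 5 fell) ran from 32.7 to 248 CPM in control, 11.7 to 32.2 in CONV and 11.6 to 29.2 in FLASH, with the top value in control 2. Without control 2, 15 members fell in CONV and 24 in FLASH. The counts over all genes were smaller there too. They were 1254 in CONV and 2536 in FLASH of 16123 tested, against 1953 and 3416 of 16257 with all libraries. T and NK cell markers (10, of which 9 were tested and 7 and 7 fell) ran from 169 to 489, 56.7 to 226 and 85.3 to 232 CPM. Plasma cell markers (7, of which 4 and 5 fell) ran from 4984 to 10300, 840.2 to 2146 and 975 to 2279 CPM. Smooth muscle markers (8, of which 4 and 8 fell) ran from 1158 to 3485, 165 to 1133 and 383 to 1206 CPM. Endothelium markers (7, of which 2 and 0 fell) ran from 73.1 to 646, 87.2 to 146 and 131 to 317 CPM. Over all genes 12.0% fell and 10.2% rose in CONV, and 21.0% fell and 16.7% rose in FLASH. The part of these cells in the members' fall was not tested.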

How the data were processed

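RNA of whole jejunum was sequenced from 250 ng per library with a stranded mRNA kit as single-end 100 bp reads, per the labels' protocols. The deposited estimated counts were made by the authors with STAR and Salmon on mm10, per the submitters' processing notes, which also name edgeR 3.40.2 and limma 3.54.2; their roles are not given in the sources used here. A deposited table of 19193 genes holds the authors' log2 values and served as an alternative. Groups came from the treatment labels and columns from library names.

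Estimated counts of 54532 genes were rounded, filtered with filterByExpr and scaled by TMM. One quasi-likelihood fit over all 18 libraries (edgeR 4.0.16, R 4.3.3) gave log2 fold changes with SE and Benjamini-Hochberg adjusted p-values over 16257 genes. The offset for transcript length and GC content (GENCODE M21, GRCm38) came from splines of 4 df fitted in each library. Replicates differed by more than counting noise: the lowest chi-square per degree of freedom within a group was 25.28. In a test on simulated data, 53%, 50% and 55% of 2-fold changes and 94%, 96% and 91% of 4-fold changes were recovered for CONV against control (16005 genes), FLASH against control (15993) and FLASH against CONV (16016), with 5.16%, 2.67% and 3.95% false calls. Only 200 genes were changed per comparison there, far fewer than were called in the data, and no length trend was drawn. These rates therefore need not hold for the data.

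The 40 members, the other lists and the markers were chosen with earlier results of these data known, so no test over a list was made. All 40 members are accounted for. Given with their values in the libraries are the members with the smallest p in each role group and comparison, those called in FLASH against CONV, and Mki67, Ccnb1 and Kif23. Named from the other lists are genes among the 4 with the smallest p in a comparison, and Cdkn1a, Foxm1 and Mybl2. The 6 promoters printed were chosen after their motifs were seen. Alternatives were other scalings, filters and tests (DESeq2 1.42.0, limma 3.58.1, sva 3.50.0), a replicate block, the offset and leaving out libraries.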

Additional observations from a re-analysis of the deposited data

Results flagged for a closer look

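A single library lay far from the rest of its group in 4 of 120 combinations of member and group, by Dixon's ratio of the gap to the range. Chance flags about 1 in 20 groups. All 4 were FLASH libraries. Kif15 was at 6.607 CPM in FLASH 4, where the other 6 ran from 3.679 to 4.864 CPM. FLASH 1 held Cenpa at 26.09 CPM, against 8.044 to 13.74 CPM in the others, and Birc5 at 24.64 CPM, against 9.476 to 14.93 CPM. Aurkb was at 5.935 CPM in FLASH 5, below the 11.45 to 14.21 CPM of the others.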

How the results depend on the processing

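Of the 40 members, 17 fell in CONV, 27 in FLASH and 4 were lower in FLASH than in CONV, and 0 rose under all of the alternatives run. With the replicate block these counts were 11, 26 and 2. Libraries were also correlated across groups, as deviations from their group means. Over 13 same-number pairs r ran from -0.27 to 0.606 with a median of -0.0543, and 3 exceeded 0.1. Over 94 pairs of different numbers r ran from -0.6 to 0.497 with a median of 0.0162, and 30 exceeded 0.1. Correlations of this kind cannot settle whether equal numbers mark pairs. Requiring more than 2-fold left 9, 5 and 0. FLASH against CONV had 2 with no filter but 1 count, 2 with the replicate block and the length and GC offset together, and 7 with 1 surrogate variable. Leaving out 1 library at a time gave 10 to 22 in CONV, 23 to 29 in FLASH and 2 to 6 in FLASH against CONV. Scaling by library totals moved the median of all genes to -0.25, -0.44 and -0.18, and 21, 37 and 6 members were then lower. The FLASH median of the members became -1.15. All-gene counts moved by more than 1.5 times in 30 of 198 cases. In FLASH, 6550 genes fell and 1381 rose with library totals, and 2257 fell with the replicate block, against 3416 and 2719. In CONV, 1041 (without CONV 6) to 3347 (without control 6) fell and 828 to 3146 rose on leaving out the same libraries, against 1953 and 1662. There 1297 fell with no filter but 1 count and 1266 with the replicate block, 909 rose with library totals, and 2724 rose without control 6, CONV 6 and FLASH 1 together. More than 2-fold left 1293 lower and 677 higher in CONV, 1979 and 1219 in FLASH, and 615 and 732 in FLASH against CONV. In that last comparison no filter but 1 count gave 1038 lower, the replicate block 774 lower and 795 higher, 1 surrogate variable 2891 and 3175, and library totals 2816 and 911, against 1611 and 1606. Among named genes 2 turned sign and were called in the main or the alternative fit. They were Pdcd6ip in CONV, from -0.0026 to 0.3527 with the offset (adjusted p = 0.02185), and Rad21 in FLASH, from 0.02 to -0.3584 with library totals (adjusted p = 0.02891). Genes that turned sign without a call in either fit were not counted, such as Spc25 in CONV, from 0.37 to -0.26 with the offset. Standard errors did not follow depth alone: Mki67, with 198 or more counts in every library, had the widest of the members in CONV (0.44), against 0.24 for Ttk, whose lowest library held 41 counts. The cause was not tested.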
